A study of Mus musculus with 6 samples.

Results

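Long noncoding RNAs (lncRNAs) are transcripts that carry no long reading frame, and the 149 lncRNA genes described here are those with the most reads in type 2 innate lymphoid cells (ILC2s) of mouse visceral adipose tissue (VAT). They were chosen from the 8013 genes annotated as lincRNA (between other genes) or antisense_RNA (opposite another gene) by a mean raw count of at least 100 over 6 RNA-seq libraries, out of 53278 genes in all. Of the 149, 94 were lincRNA and 55 antisense_RNA, and 5147 of the 8013 genes had no read in any library. Because the count itself chose them, their levels are given as a description. The threshold fell between Gm9888 (100.3 counts on average) and Gm6598 (100.9), which were kept, and Lncpint (99.5) and Gm26637 (99.8), which were not.

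The ILC2s came from C57BL/6 mice aged 8 weeks that had received 3 intraperitoneal injections of 1 µg IL-33, so both groups were activated in vivo and no naïve cells were sequenced. The sorted cells were cultured with IL-2 and IL-7 (10 ng/mL each) and either DTA-1 (5 µg/mL), an agonistic antibody to the receptor GITR, or the isotype control, with 3 libraries of each, and the question was what GITR engagement changes in the transcriptome. The count columns of the 3 control libraries carry PBS in their names while their titles read isotype, and the control is called isotype control here after the titles. The culture time was 48 h according to the labels, though the paper states a shorter time for this experiment in its Results. From each sample 10 ng of RNA entered the library. Nothing says whether the 3 libraries of a group came from separate animals, so a p-value measures the spread between these libraries, which may be technical. In bulk RNA, fewer cells of a type and less RNA per cell cannot be told apart.

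Some lncRNAs stay in the nucleus, where they build bodies such as paraspeckles or silence neighbouring genes in cis, as Kcnq1ot1 does at an imprinted locus. Others act in the cytoplasm by binding proteins or microRNAs, and many are hosts whose introns or exons release microRNAs or small nucleolar RNAs (snoRNAs). Antisense transcripts overlap a coding gene on the other strand and often start back to back with it from a shared promoter. In lymphocytes, Mir155hg carries miR-155, an amplifier of activation, and Morrbid (Gm14005 in the table) restrains the death gene Bcl2l11 in short-lived myeloid cells.

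The libraries held 30569351 to 35131329 counts. The lncRNA genes took a share of 0.396%, 0.415% and 0.441% in the isotype control (replicates 1 to 3 in order, as throughout) and of 0.387%, 0.363% and 0.393% with DTA-1. The library labelled DTA-1 replicate 1 stood apart from its group. Measured as the chi-square of counts across genes over its degrees of freedom, its distance was 10.1 to 11.9 to the isotype control libraries and 29.0 and 30.5 to the other two DTA-1 libraries, so results are given with and without it. The defining ILC2 genes were present in every library, with 1698 ± 15.8 (SD, n = 3) normalised counts of Gata3 and 1178 ± 91.8 of Il1rl1 in isotype control. Of 10 markers of fibroblasts and adipose stroma, 7 were tested and 4 were lower at an unadjusted p under 0.05 and 1.5-fold. They summed to 15.6, 6.50 and 17.97 normalised counts in the isotype control libraries and to 0.647, 1.73 and 6.90 with DTA-1, and Dpt was at 0 in all 6. Of 4 endothelial markers only Pecam1, which leukocytes also express, was tested. The 4 summed to 24.4, 18.4 and 22.2 against 18.3, 10.6 and 10.8, with Cdh5 and Cldn5 at 0 throughout. The 8 macrophage markers summed to 6.78, 6.44 and 12.2 against 8.67, 11.9 and 11.4, most of it Cd68, and C1qb was at 0 throughout. The 4 B cell markers summed to 16.6 to 18.2 over all libraries. Markers of adipocytes, mesothelium and neutrophils summed to less than 1 in each library. The part of other cells in the results that follow was not tested.

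Malat1, a nuclear RNA concentrated in splicing speckles, led the lncRNA genes and ranked 64 among all genes by mean count. Normalised counts, given throughout as CPM after the libraries were scaled to each other by TMM, were 1061, 1264 and 1358 in the isotype control libraries and 1077, 1030 and 1144 in those with DTA-1. The groups overlapped, with the lowest isotype control library below 2 of the DTA-1 libraries, and the log2 difference of DTA-1 minus isotype control was -0.18 ± 0.09 (SE; 95% interval -0.37 to 0.01; edgeR's quasi-likelihood test, adjusted p = 0.707). Malat1 made up 27.0 to 31.2% of all lncRNA counts. On chr19:5795690-5802672 (minus strand; GRCm38), 453 of its exon bases are also annotated as Gm37376 on the plus strand, and Gm37376 was assigned 15542 counts on average against 38614 for Malat1. Neat1, the RNA scaffold of paraspeckles and the neighbour of Malat1 on chromosome 19, had 254 ± 37.8 normalised counts in isotype control and 248 ± 20.9 with DTA-1. All 10 paraspeckle protein genes on the list set beside it were tested (Nono, Sfpq, Hnrnpk and others), none passed the test at an adjusted p or at the unadjusted limit, and 7 had a log2 difference above 0 and 3 below it, with a median of 0.03.

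The second highest count belonged to Gm26917 (chr17:39843013-39846341), with 739 ± 37.2 normalised counts in isotype control and 767 ± 121 with DTA-1. It lies next to Gm42418, which RefSeq names Rn18s-rs5, a ribosomal RNA pseudogene, and which lies across from an annotated rRNA gene over 99.5% of its exon bases. Both together took 17.6 to 22.9% of the lncRNA counts. Without them, the lncRNA genes held 0.316%, 0.342% and 0.361% of counts in isotype control and 0.319%, 0.286% and 0.303% with DTA-1, so that DTA-1 replicates 2 and 3 lay below all isotype control libraries and DTA-1 replicate 1 did not.

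**Figure D1:**
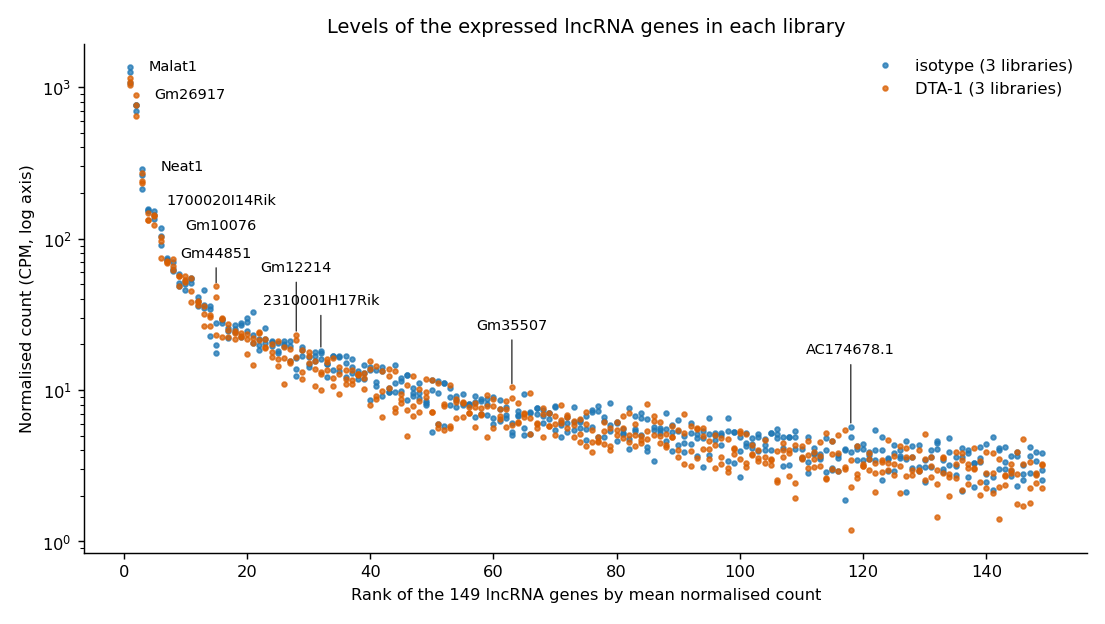
Normalised counts (CPM, log axis) of the 149 lncRNA genes in each of the 3 isotype control (blue) and 3 DTA-1 (orange) libraries, ordered by mean level. Malat1 and Gm26917 lie at the top and most genes lie under 10.

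Levels fell off steeply below these. The median lncRNA gene had a mean raw count of 191, and 14 of 149 reached 1000. Per kilobase of exon, the scale on which genes can be compared, the median was 3.11 normalised counts for the 142 lncRNA genes with an annotated exon length, against 9.16 for 9821 protein-coding genes with at least 100 counts. Replicates varied by a median of 12.9% over the 149 genes (coefficient of variation within isotype control), from 0.70% for 4933424M12Rik to 44.6% for Flicr. Within 100 to 1000 counts, the median was 13.8% for the 135 lncRNA genes and 12.1% for the protein-coding genes. A count of 100 alone gives a counting error of 10%, and one of 1000 gives 3.16%.

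By level per kilobase, the highest was Gm10076, at 255 normalised counts per kilobase, followed by Gm26917 (226), AW112010 (174), Malat1 (165), Gm6213 (43.8), Gm12214 (41.3), Gm37401 (35.4), Gm28592 (33.1), Gm42031 (27.3) and 1700097N02Rik (25.2). Gm10076 (chr14:105681828-105682211) is a copy of Rpl41, which encodes a very short protein of the large ribosomal subunit. RefSeq lists Gm10076 as a pseudogene, and its transcript matched Rpl41 along its whole length at 99.3% identity. The stretches that correspond to the Rpl41 reading frame are shown because all 78 bases are the same in both genes, so a read within them cannot be told apart (from GENCODE M21 on GRCm38, start to stop codon).

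Rpl41: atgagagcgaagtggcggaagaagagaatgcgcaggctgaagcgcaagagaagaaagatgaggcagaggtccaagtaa
Gm10076: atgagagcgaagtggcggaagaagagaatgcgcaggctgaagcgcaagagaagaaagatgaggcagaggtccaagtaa

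The count of Gm10076 stayed at 31.95 to 33.6% of that of Rpl41 in all 6 libraries, and its level (105 ± 13.4 in isotype control, 91.2 ± 14.98 with DTA-1) is therefore uncertain. In all, 8 lncRNA genes had a transcript of which at least 90% matched transcripts of other genes at 95% identity or more, among them Gm26825, which matched the chaperone gene Hspa8 on the opposite strand, and Gm42031 and Gm26880, which share part of their sequence with Cep85. Counts of such genes can depend on how the reads were divided. This matters less where the matching genes drew few reads. For 2900097C17Rik (Norad), also among the 8, the matched transcript was 339 bases long and the matching gene had a mean count of 0.82. For Gm42047 the highest-counted match had 2.58. Only 39 of the 149 genes had whole counts in every library (within 1e-06), 27 of the 58 without an overlapping neighbour and 12 of the 91 with one.

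AW112010 (chr19:11047617-11050566), an RNA induced in inflamed myeloid cells where a short reading frame is translated, had no near copy and no overlapping neighbour. It had 152, 136 and 144 normalised counts in isotype control and 143, 140 and 122 with DTA-1. Only DTA-1 replicate 3 lay below the isotype control range, and the log2 difference was -0.09 ± 0.08 (SE). 1810058I24Rik, named for its RefSeq type after its values were seen, is listed there as protein-coding (a mitochondrial micropeptide) and had 38.8 ± 2.59 against 37.8 ± 1.10. Of the 101 lncRNA genes that matched RefSeq, 91 were lncRNA there, 6 protein-coding and 4 of other types.

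Cyrano (1700020I14Rik, chr2:119594297-119607502), a conserved RNA that binds miR-7 and triggers its decay, had 158, 155 and 153 normalised counts in isotype control and 147, 134 and 133 with DTA-1. Every DTA-1 library lay below every isotype control library. The log2 difference was -0.17 ± 0.07 (SE; 95% interval -0.32 to -0.03; unadjusted p = 0.025, adjusted p = 0.655 by edgeR), which is under the 1.5-fold limit, and its SE was the smallest of the 149. The sites that match the seed of miR-7 are shown with the microRNA because the transcript holds 2 of them that differ in the pairing beyond the seed. Capitals mark the seed (bases 2 to 8) in the microRNA, and in the RNA the bases that pair with it in runs of Watson-Crick pairs. The microRNA sequence is from RefSeq on GRCm38.p6, and the seed matches lie at chr2:119599964-119599970 for the first site and chr2:119602154-119602160 for the second.

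mmu-miR-7a-5p: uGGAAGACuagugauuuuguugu
Cyrano first site: gacttcaggttttttttttaatGTCTTCCa
Cyrano second site: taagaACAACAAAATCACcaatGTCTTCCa

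Upstream of the seed match, the second site pairs with bases 11 to 23 of the microRNA in 1 run of 13 bases. No such run was found at the first site. At both sites the a after the seed match can also pair with base 1 of the microRNA and is left in lower case. A match to the miR-7 seed was found in transcripts of 25 of the 142 lncRNA genes with a transcript (17.6%), so a seed match alone is common.

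Norad (2900097C17Rik, chr2:156388065-156392979), a cytoplasmic RNA that binds Pumilio proteins, had 64.4 ± 4.67 normalised counts in isotype control and 66.9 ± 5.61 with DTA-1. Its transcript held 11 copies of the Pumilio motif TGTANATA on the RNA strand, 2.24 per kilobase, and 37 of 142 lncRNA genes (26.1%) held at least 1. A short transcript of Norad (339 bases) is identical to Gm7292, which had a mean count of 0.82. Tug1, transcribed head to head with Morc2a, had 52.7 ± 5.35 and 53.8 ± 4.75. Both differences were within the spread of the replicates.

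Of the list of nuclear and chromatin lncRNAs (19 names, of which 10 were tested and 6 are among the 149), none passed the test and 7 of the 10 had a log2 difference below 0, with a median of -0.21. At the unadjusted limit 2 were lower, Jpx and Lncpint, both under 100 counts and so not among the 149. Kcnq1ot1, 93092 exon bases long and thus the lowest per kilobase (0.24), had 22.9, 20.5 and 32.9 normalised counts in isotype control and 22.1, 14.6 and 20.4 with DTA-1. The groups overlapped, and the log2 difference was -0.42 ± 0.20 (SE). Ftx, an activator of Xist, had 3.82 ± 1.18 and 3.23 ± 0.33. Xist, the RNA of X inactivation, had a mean raw count of 1, and of its 9 protein partners on a list (Spen, Hnrnpu, Lbr and others) none passed the test. The 4 Y-linked genes summed to 176 to 196 normalised counts in every library.

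Mir155hg (chr16:84703167-84715245) had 3.17, 4.88 and 4.17 normalised counts in isotype control and 4.46, 4.004 and 3.61 with DTA-1. All DTA-1 libraries lay within the isotype control range, the log2 difference was -0.02, and its 95% interval (-0.56 to 0.53) did not exclude a change of 1.5-fold at this depth. Mature microRNA sequences in RefSeq lay on the same strand within 4 lncRNA genes (Mir155hg, Ftx, Snhg20 and 2900076A07Rik). This search left out the lncRNA genes of a single chromosome, so the 4 are a lower bound. Mature sequences from Mir155hg and Ftx, except miR-374b-3p of Ftx, are shown (RefSeq, seed in capitals). The reason is that the gene-level counts describe these hosts and not the microRNAs themselves, which were not measured.

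mmu-miR-155-5p (Mir155hg): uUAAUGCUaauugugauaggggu
mmu-miR-155-3p (Mir155hg): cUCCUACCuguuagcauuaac
mmu-miR-421-5p (Ftx): cUCAUUAAauguuuguugaau
mmu-miR-374b-5p (Ftx): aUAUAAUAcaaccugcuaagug

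No seed was shared between these. Of the list of microRNA hosts (15 names, 6 tested), none passed the test and 5 of 6 had a log2 difference below 0. Among the 10 microRNA processing genes set beside them, none passed either. The only one past the unadjusted limit was Ago1, an Argonaute gene, with 6.30 ± 1.83 normalised counts in isotype control and 4.10 ± 0.15 with DTA-1 (log2 difference -0.62 ± 0.24, SE; adjusted p = 0.655 by edgeR). Ago2, named after its values were seen and the more abundant Argonaute gene by count, had 72.8 ± 4.17 and 89.9 ± 7.85, with a log2 difference of 0.30 ± 0.09 (SE) in the other direction, under the fold limit. Of the 10 genes, 7 had a log2 difference above 0.

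Genes annotated only as snoRNA or scaRNA lay on the same strand within 4 of the 149 genes. Mir1839 within 2900076A07Rik, annotated as both miRNA and scaRNA, was not counted. Of the 4, 2700038G22Rik, the host of Snord93, was one of the 6 lower genes past the unadjusted limit, and its values are given with them. Dancr, which carries Snora26, had 3.72 ± 1.08 normalised counts in isotype control and 3.79 ± 0.76 with DTA-1. Snhg6, which carries Snord87, had 6.96 ± 0.27 and 6.79 ± 1.22, and Snhg20 had 18.7 ± 1.56 and 17.1 ± 3.47. Most hosts of this kind (Gas5, Zfas1 and others) are annotated as processed_transcript in the table and so fall outside the choice. Over the whole list, 15 of 20 genes were tested, none passed the test, and 12 of the 15 had a log2 difference below 0, with a median of -0.16.

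The lncRNAs studied in lymphocytes or myeloid cells, a list of 14 names with 6 tested, had no gene past the test. All 6 had a log2 difference below 0, and only Lncpint passed the unadjusted limit. Pvt1, a neighbour of Myc, had 19.6, 20.9 and 20.8 in isotype control and 20.2, 17.7 and 16.5 with DTA-1, where replicates 2 and 3 lay below all isotype control libraries and replicate 1 did not. Its count was 15.3 to 15.6% of that of Myc in isotype control and 14.04%, 11.8% and 10.3% with DTA-1, beside a log2 difference of 0.19 ± 0.07 (SE) for Myc itself. Morrbid (Gm14005) had 16.8, 13.4 and 16.5 against 14.1, 12.8 and 9.47, a log2 difference of -0.36 ± 0.18 with groups that overlapped, and its neighbour Bcl2l11 had 5.98 ± 0.97 and 5.23 ± 2.199. LincRNA-p21 (Trp53cor1) had 5.34, 3.39 and 6.58 against 4.72, 3.04 and 2.89, and Flicr, which overlaps Foxp3 on the same strand, had 3.24 ± 1.45 and 2.93 ± 0.88 beside 2.77 ± 0.21 and 1.88 ± 0.61 for Foxp3, the regulatory T cell factor. A Trp53cor1 transcript of 1389 bases matched transcripts of other genes over 80.3% of its length, none of them from genes counted here. The part of shared reads in its values was not tested. The T cell marker list summed to 40.9 to 54.1 normalised counts over all libraries.

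The test across genes (edgeR, quasi-likelihood) covered 14361 genes with enough counts, and all 149 lncRNA genes were among them. To be called, a gene needed both an adjusted p under 0.05 and a 1.5-fold difference or more. None was called (0.0% of all genes tested and 0 of the 149), 14 of the 149 (9.396%) had an unadjusted p under 0.05, beside 7.22% of all genes tested, and the smallest adjusted p of a lncRNA gene was 0.627 (edgeR). DESeq2's Wald test called 25 genes (0.152% of 16489 with an adjusted p) and 0 of the lncRNA genes. At an unadjusted p under 0.05 with the same fold limit, 8 lncRNA genes passed (5.37%), beside 2.35% of all genes tested. Of these, 2 were higher (1.34%, against 1.09% of all genes) and 6 were lower (4.03%, against 1.26%). The log2 differences ran from -1.07 to 0.80, and 107 of the 149 were within 0.3 of 0. The 95% interval lay wholly inside a 1.5-fold change for 45 genes. For the others a change of that size was not excluded at this depth.

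**Figure D2:**
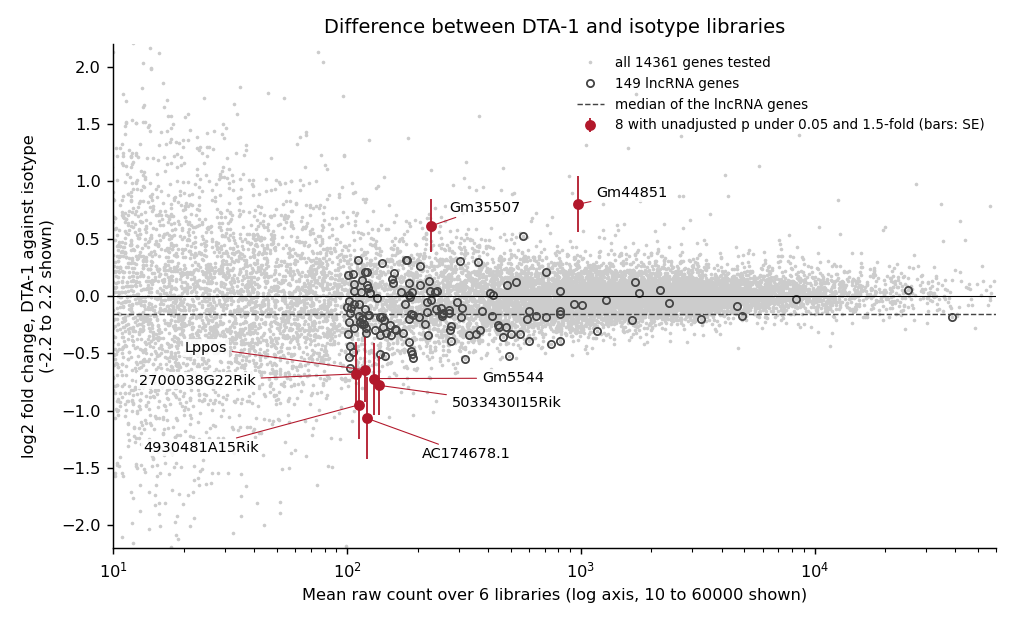
log2 fold change of DTA-1 against isotype control over the mean raw count (log axis) for all genes tested (grey) and the 149 lncRNA genes (open circles), with the 8 that passed the unadjusted limit in red with their SE. Of the 8, 6 lie below 0 and have 109 to 138 counts, while Gm35507 and Gm44851 lie above 0, and the dashed median of the lncRNA genes is at -0.16.

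The lncRNA genes as a group lay slightly lower with DTA-1. Their median log2 difference was -0.16 (quartiles -0.30 and 0.03), and 105 of 149 (70.5%) were below 0, beside a median of -0.01 and 51.9% below 0 over all genes tested. Protein-coding genes of 100 to 1000 counts had a median of -0.03 with 55.4% below 0, and the 77 processed_transcript genes with at least 100 counts had -0.12 with 68.8% below 0. The 3 DTA-1 libraries differed in this. Relative to the isotype control mean, the median lncRNA gene was at -0.02 in DTA-1 replicate 1, -0.21 in replicate 2 and -0.23 in replicate 3, while the isotype control libraries were at -0.02, 0.01 and 0.05. The median over all genes stayed within 0.01 of 0 in each library, which the TMM scaling largely sets. With total counts as the scale, the median log2 difference over all genes tested was -0.04. The stromal marker sum was lowest in DTA-1 replicate 1, and Pecam1 was lowest in DTA-1 replicates 2 and 3. Whether either bears on the lncRNA levels was not tested.

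**Figure D3:**
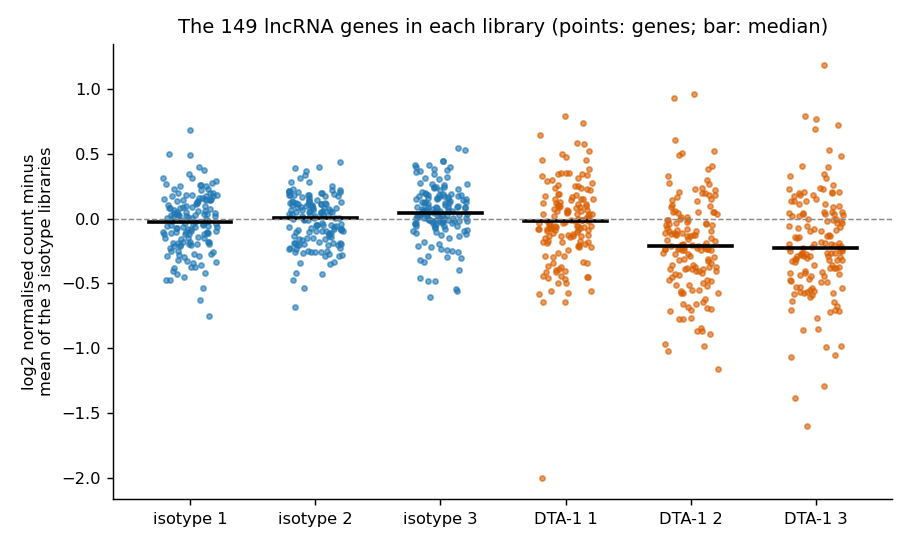
Difference of each of the 149 lncRNA genes from the mean of the 3 isotype control libraries (log2 normalised counts) in each library, with the median as a bar. The medians of DTA-1 replicates 2 and 3 lie at -0.21 and -0.23, and that of DTA-1 replicate 1 lies at -0.02, next to the isotype control libraries.

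The groups did not overlap for 21 lncRNA genes. In 19 (12.8%) the highest DTA-1 value was under the lowest isotype control value, beside 6.03% of all genes tested, and in 2 (1.34%) the order was the reverse, beside 5.26%. The 2 were Gm12214 and AC124426.2. When DTA-1 replicate 1 was left out of the fit, 14911 genes were tested and 1 lncRNA gene was called (Gm44851), beside 111 genes in all (0.744%). The unadjusted limit was then passed by 18 lncRNA genes (12.1%, against 4.02% of all genes), of which 3 were higher (beside 1.8% of all genes) and 15 lower (beside 2.23%). Of the 8 genes past it in all 6 libraries, 7 were among the 18, and Lppos was not. DTA-1 replicate 1 was singled out in these same data for its closeness to isotype control, so leaving it out favours larger differences. The counts without it are a description and no independent support.

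Gm44851 (antisense_RNA, chr7:80404269-80406577, plus strand) had the highest log2 difference of the 149. Its normalised counts were 17.5, 19.8 and 27.6 in the isotype control and 23.3, 41.5 and 48.4 with DTA-1. DTA-1 replicates 2 and 3 lay above all isotype control libraries and replicate 1 lay among them. The log2 difference was 0.80 ± 0.24 (SE; 95% interval 0.27 to 1.34; unadjusted p = 0.0072), and without DTA-1 replicate 1 it was 1.05 ± 0.18 (SE) with an adjusted p of 0.018 (edgeR). Because that library was left out for its closeness to isotype control, this adjusted p is no independent support. Gm44851 overlaps the start of Furin, the gene of a proprotein convertase, on the other strand. Only 5.11% of its exon bases lie on Furin exons, all of them UTR, 45.5% lie in a Furin intron and 49.4% outside. Furin itself had 1259 ± 128 normalised counts in isotype control and 2177 ± 787 with DTA-1, a log2 difference of 0.79 ± 0.27 (SE), and the count of Gm44851 stayed at 1.47 to 2.09% of that of Furin in every library.

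Gm12214 (antisense_RNA, chr11:53723953-53724618, minus strand) lies opposite Il5, the gene of the ILC2 cytokine IL-5. It had 12.3, 16.3 and 13.7 normalised counts in isotype control and 16.4, 21.4 and 23.2 with DTA-1. The groups did not overlap, though DTA-1 replicate 1 exceeded the highest isotype control library by less than 1 CPM. The log2 difference was 0.53 ± 0.16 (SE; unadjusted p = 0.0083, adjusted p = 0.627 by edgeR), under the 1.5-fold limit, and it was 0.66 without DTA-1 replicate 1. All 417 exon bases of Gm12214 lie on Il5 exons, 14.1% in coding sequence and 85.9% in UTR. Il5 had 5325 ± 230 and 8074 ± 2156 normalised counts, a log2 difference of 0.60 ± 0.16, and Gm12214 was assigned 0.220 to 0.3002% of the Il5 count in each library. Whether strand was used in counting is not given in the sources used here, and without strand, reads of Gm12214 and of Il5 cannot be told apart.

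Gm35507 (lincRNA, chr3:106827307-106879361, minus strand) overlaps no gene of at least 10 counts, and its nearest coding neighbours of that level are Cd53, which encodes a leukocyte tetraspanin, and the potassium channel gene Kcna3. It had 6.11, 5.28 and 5.07 normalised counts in isotype control and 5.89, 10.4 and 8.82 with DTA-1. Replicates 2 and 3 were above all isotype control libraries, and replicate 1 lay within them. The log2 difference was 0.61 ± 0.23 (SE; unadjusted p = 0.023) and 0.81 without DTA-1 replicate 1. Its neighbours Cd53 and Kcna3 had log2 differences of 0.10 ± 0.06 and 0.02 ± 0.12.

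2310001H17Rik (lincRNA, chr6:129208412-129238725, minus strand), which had the smallest unadjusted p of the 149 and was chosen after its values were seen, lies between Clec2d and the activation antigen gene Cd69. It had 18.2, 15.9 and 17.5 normalised counts in isotype control and 13.1, 10.1 and 12.8 with DTA-1. Every DTA-1 library lay below every isotype control library, replicate 1 included. The log2 difference was -0.52 ± 0.15 (SE; 95% interval -0.85 to -0.19; unadjusted p = 0.0053, adjusted p = 0.627 by edgeR), and Cd69, 28600 bases away, had 0.19 ± 0.08.

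The promoters of these last genes are shown since both genes lie away from other genes of at least 10 counts and had log2 differences of opposite sign (RefSeq start on GRCm38.p6, from 250 bases before to 50 after it, on the strand of the gene, CpG sites in capitals). The windows are chr3:106879312-106879611 for Gm35507 and chr6:129238433-129238732 for 2310001H17Rik, whose RefSeq start is 243 bases from that in the table.

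Gm35507 promoter: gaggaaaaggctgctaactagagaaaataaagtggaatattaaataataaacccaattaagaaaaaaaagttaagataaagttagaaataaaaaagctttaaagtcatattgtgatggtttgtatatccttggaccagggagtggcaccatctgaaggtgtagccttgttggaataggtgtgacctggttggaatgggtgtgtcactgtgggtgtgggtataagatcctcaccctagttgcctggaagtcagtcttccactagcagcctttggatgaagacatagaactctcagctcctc
2310001H17Rik promoter: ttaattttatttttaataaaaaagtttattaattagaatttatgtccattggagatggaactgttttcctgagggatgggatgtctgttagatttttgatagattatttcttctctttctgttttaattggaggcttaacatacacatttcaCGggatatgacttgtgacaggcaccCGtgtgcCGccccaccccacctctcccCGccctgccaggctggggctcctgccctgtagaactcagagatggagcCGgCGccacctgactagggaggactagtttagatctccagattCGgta

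The window of Gm35507 holds 0 CpG sites and that of 2310001H17Rik holds 7. Of 59 lncRNA genes with a RefSeq start within 500 bases of the start in the table, 27 (45.8%) had a CpG-rich promoter. CpG-rich means at least 50% G and C and a CpG ratio of at least 0.6. Over the whole of RefSeq the count was 9213 of 27025 genes (34.1%). These were taken at the first listed start of each gene, expressed or not, while the lncRNA genes were taken at the start nearest to that in the table. Among the 59, the count was 8 of 12 for those that start head to head with another gene and 19 of 47 for the rest.

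The 6 lower genes had low counts, between 109 and 138 on average. A transcript of 2700038G22Rik matched AI506816 (5151 counts) over 40.6% of its length at 97.9% identity. A transcript of 4930481A15Rik matched Uqcr10 (3444 counts) on the opposite strand over 32.7% at 96.7% identity. The part of shared reads in the values of these genes was not tested. 4930481A15Rik (antisense_RNA, chr19:5406740-5422847) had 4.47, 4.11 and 4.59 normalised counts in isotype control and 2.98, 2.402 and 1.44 with DTA-1, with no overlap. Its log2 difference was -0.95 ± 0.30 (SE; unadjusted p = 0.0089). Drap1, which encodes a transcriptional corepressor on the other strand, had a log2 difference of -0.08 ± 0.09.

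5033430I15Rik (lincRNA, chr13:45965253-45966508) starts 245 bases from Atxn1, the gene of the nuclear protein ataxin 1, in the opposite direction. It had 5.09, 4.79 and 5.56 normalised counts in isotype control and 3.98, 2.53 and 2.48 with DTA-1. The groups did not overlap, and DTA-1 replicate 1 lay closest to isotype control. The log2 difference was -0.78 ± 0.26 (SE), and that of Atxn1 was -0.32 ± 0.14.

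AC174678.1 (antisense_RNA, chr14:55643604-55646352), which starts 202 bases from the endosomal membrane gene Tm9sf1, had the lowest log2 difference of the 149. Its normalised counts were 5.74, 4.93 and 3.91 in isotype control and 1.197, 3.46 and 2.29 with DTA-1. Here DTA-1 replicate 1 was the lowest library, so the log2 difference of -1.07 ± 0.36 (SE) became -0.76 without it. Tm9sf1 had 168 ± 11.1 and 171 ± 5.90.

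2700038G22Rik (lincRNA, chr5:23850597-23855038), a host of Snord93, had 4.805, 3.91 and 3.20 in isotype control and 2.78, 1.99 and 2.67 with DTA-1. Lppos (lincRNA, chr16:24391612-24393588), which starts 238 bases from Lpp, the gene of a focal adhesion protein, had 4.04, 5.47 and 3.43 against 2.85, 3.30 and 2.13. In both genes the groups did not overlap, though by less than 1 CPM, and the log2 differences were -0.68 ± 0.28 and -0.64 ± 0.28 (SE). Gm5544 (chr3:97930173-97967018), protein-coding in RefSeq, had 5.40, 4.88 and 4.08 against 4.33, 2.43 and 1.94, where DTA-1 replicate 1 lay within the isotype control range, and a log2 difference of -0.72 ± 0.31.

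**Figure D4:**
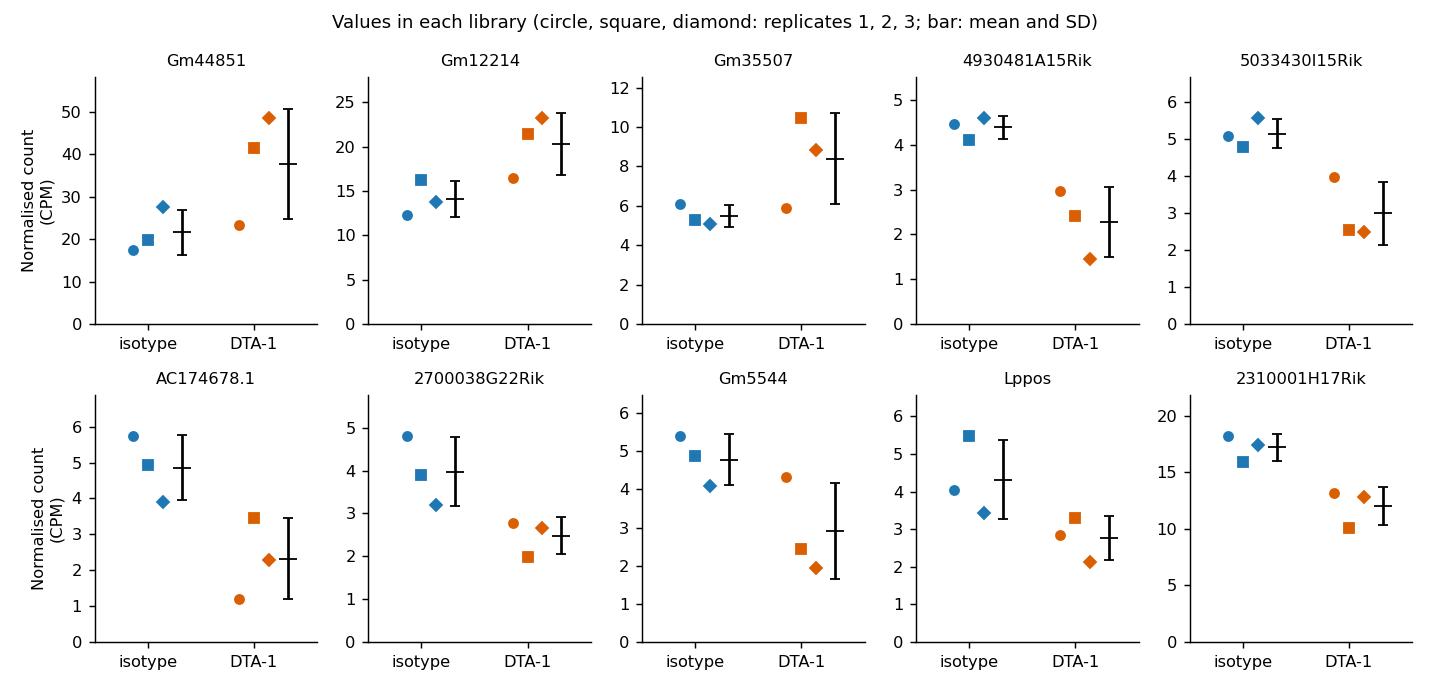
Normalised counts (CPM) in each library of the 8 lncRNA genes that passed the unadjusted limit, of Gm12214 and of 2310001H17Rik, with replicates 1, 2 and 3 as circle, square and diamond and the mean ± SD beside them. In Gm44851, Gm35507 and Gm5544 the circle of DTA-1 lies within the isotype control values, and in 4930481A15Rik, 5033430I15Rik and 2310001H17Rik all DTA-1 values lie lower.

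The lncRNA genes were then placed against their neighbours by coordinates. Of 149, 91 overlapped another gene with at least 10 counts on average (51 of the 55 antisense_RNA and 40 of the 94 lincRNA), 81 of them on the opposite strand, and 58 overlapped none. The median log2 difference was -0.18 in the 58 without and -0.14 in the 91 with an overlap. Of the 81 opposite genes, 68 had the higher count.

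Exon bases were shared by 72 lncRNA genes, and in 16 at least 50% of them were shared. Gm12214, Gm11175 and Gm44170 lay wholly on exons of Il5, Jund and Sec61a1. Gm11175 (chr8:70699162-70700080), named here after its values were seen, covers only coding sequence of Jund, a subunit of AP-1. It had 15.6, 16.8 and 17.7 normalised counts in isotype control and 10.7, 15.4 and 13.8 with DTA-1, and DTA-1 replicate 1 was the lowest. Gm44170, which lies on UTR of the translocon gene Sec61a1, stayed at 0.883 to 1.03% of its count, and Gm28592 at 52.3 to 59.9% of that of Phlda1, an early-response gene. Gm37401 lies on UTR of Rhoa for 93.4% of its exons and was at 1.81 to 3.10% of it. The count was lower than that of the partner in all 16, from 0.257 to 56.1% of it with a median of 8.12%.

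Over these 16 pairs the log2 difference had the same sign in the lncRNA gene and its partner in 12, and Pearson's r was 0.74 across pairs, which share libraries and exon bases and are not independent replicates. Their median log2 difference was 0.04, and 6 of 16 were below 0. Without the 31 genes that shared exons or transcript sequence to at least 50%, the median of the other 118 was -0.17, and 91 of them (77.1%) were below 0.

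GITR itself is Tnfrsf18, and an antisense gene lies across from it. Gm16008 (chr4:156022008-156031643), named after its values were seen, had 6.05, 5.25 and 6.60 normalised counts in isotype control and 5.60, 6.66 and 6.87 with DTA-1, and 31.3% of its exon bases lay on exons of Tnfrsf18. Its groups overlapped, with a log2 difference of 0.10 ± 0.20 (SE). Tnfrsf18 had 717 ± 45.1 and 708 ± 49.4. Gm13256, which lies opposite Gata3, the master factor of ILC2s, and was likewise named after its values were seen, had 3.51, 3.91 and 3.71 against 3.82, 2.98 and 3.51, or 0.196 to 0.231% of the Gata3 count.

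Head-to-head genes, with starts within 1000 bases in opposite directions, numbered 30, with a median distance of 198 bases. Their median log2 difference was -0.20, and that of the genes they face was 0.02. The sign was the same in 12 of the 30 pairs, and in 13 the lncRNA gene was lower while its partner was higher. For 8 of the 30 (26.7%) the DTA-1 values were all under the isotype control values, beside 6.03% of all genes tested, and for none were they all above. These were Brip1os, Gm26782, 1110002L01Rik, Fam120aos, 5033430I15Rik, AC174678.1, Gm11131 and Lppos, listed after their values were seen. Fam120aos, which faces Fam120a, had 5.20, 3.99 and 5.22 normalised counts in isotype control and 3.49, 3.20 and 3.45 with DTA-1, a log2 difference of -0.51 ± 0.26 (SE), while Fam120a was at 0.06. The gene at the Rosa26 locus, Gt(ROSA)26Sor, starts 32 bases from Setd5 in the opposite direction. It had 16.8, 18.4 and 19.4 normalised counts in isotype control and 18.4, 11.8 and 13.1 with DTA-1, so that only DTA-1 replicates 2 and 3 lay below isotype control, and its log2 difference of -0.33 ± 0.17 (SE) became -0.55 without DTA-1 replicate 1. It was likewise named after its values were seen. Setd5 itself was at 0.11 ± 0.09. 1110002L01Rik, which faces Asxl2 and shares 63.4% of its exon bases with Kif3c, had 7.15, 5.67 and 7.37 against 5.47, 3.91 and 4.52. It was at 15.7 to 19.4% of the Asxl2 count in isotype control and at 13.0%, 10.3% and 12.9% with DTA-1. Relative to the Kif3c count it was at 30.7%, 20.8% and 30.9% in isotype control and at 31.6%, 16.3% and 18.2% with DTA-1, where the groups overlapped.

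**Figure D5:**
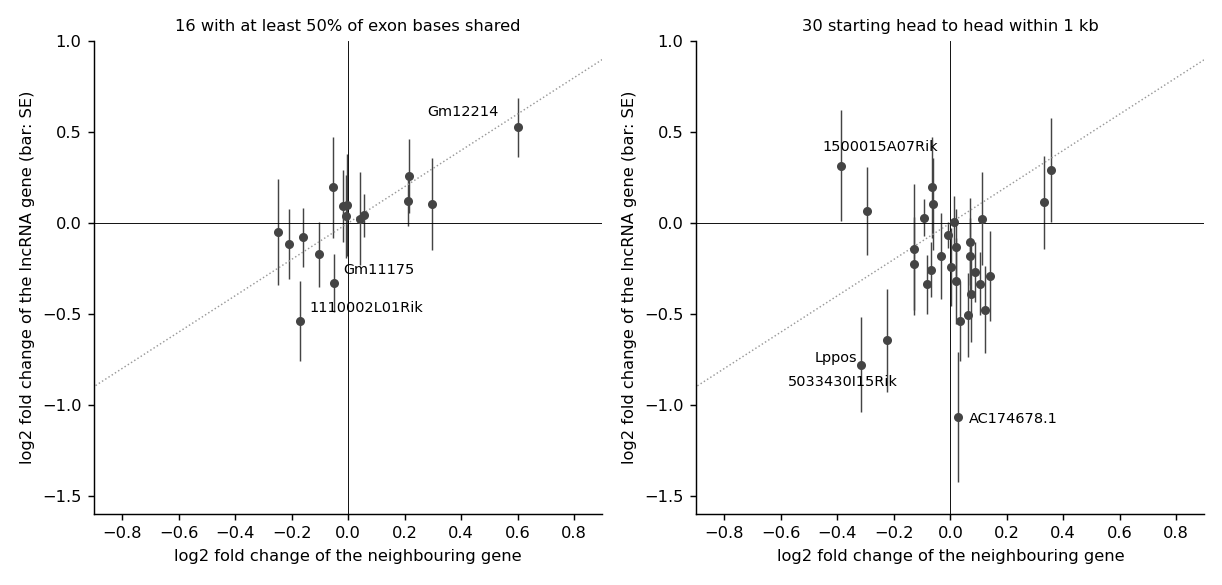
log2 fold change of the lncRNA gene (vertical, with SE) over that of its neighbour (horizontal) for the 16 lncRNA genes that share at least 50% of their exon bases with other genes (left) and the 30 that start head to head with a gene (right). The dotted line marks equal change. On the left 12 of 16 pairs have the same sign, on the right 12 of 30.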

How the data were processed

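RNA from sorted VAT ILC2s was sequenced in 3 isotype control and 3 DTA-1 libraries. The submitters' processing notes name bcl2fastq 2.17.1.14, STAR 2.5.3a, Partek and mm10. The authors deposited expected counts per gene, estimated without normalization. The annotation release, the counting rule and the use of strand are not given in the sources used here. The lncRNA genes, lists and tests were chosen with earlier results of these data known.

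Counts were rounded and fitted on all genes with edgeR 4.0.16 in R 4.3.3 (filterByExpr by group, TMM, robust quasi-likelihood test, Benjamini-Hochberg adjustment), without covariates. SEs are the log2 difference over the root of the F statistic. Total counts were 30569351 to 35131329, and a count of 0 allows up to 0.0981 CPM, from counting error only. Alternatives used DESeq2 1.42.0 and limma 3.58.1. The procedure was tested on simulated data. Gene ends were read as 1 base before the listed stop, which gave the same start and end as GENCODE M21 (GRCm38) for 47741 of 49721 shared symbols. For 7 of the 149 genes without a match there, exon lengths were not used. Transcripts were compared by BLAST 2.17.0. Named were the 10 highest lncRNA genes per kilobase, those with unadjusted p under 0.05 and 1.5-fold, those called without 1 library, list members, antisense genes opposite a coding gene past the same limits, and those beside the count limit. Others are said to be named after their values were seen.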

Additional observations from a re-analysis of the deposited data

How the results depend on the processing

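DESeq2's Wald test called 25 genes, the loosest filter called 2, and the other scalings, the stricter filter and limma-trend called 0. None of these called a lncRNA gene. Leaving out 1 library gave 0 to 111 called genes, 0 to 1 called lncRNA genes and 4 to 18 lncRNA genes past the unadjusted limit. The upper ends came without DTA-1 replicate 1, and the 4 came without DTA-1 replicate 3. The unadjusted limit was passed by 4 lncRNA genes among the 58 with no overlap and by 2 among the 73 with at least 200 counts, which are fewer genes by construction. The median log2 difference stayed below 0 in every alternative run, from -0.19 to -0.11 with 1 library left out. Leaving out near copies and genes with shared exons was chosen after the data were seen.

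Replicate numbers did not pair the samples, with correlations of deviations of -0.01, -0.00 and 0.02 for numbers 1 to 3. With the replicate block, 1 gene and 0 lncRNA genes were called, and 7 lncRNA genes passed the unadjusted limit.

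Log2 differences near 0 changed sign in some alternatives, and the cause was not tested. With total counts as the scale, Tug1 was at -0.00562 and Gm37401 at -0.0179, and limma-trend gave 0.000988 for Mir155hg. With 1 library left out, the range was -0.0641 to 0.162 for Gm26917, -0.14 to 0.0647 for Neat1, -0.00417 to 0.12 for Norad (2900097C17Rik), -0.0292 to 0.11 for Tug1, -0.16 to 0.13 for Mir155hg, -0.19 to 0.0436 for Snhg6, -0.39 to 0.28 for Flicr, -0.14 to 0.0608 for Gm6213, -0.17 to 0.26 for Gm37401 and -0.0318 to 0.11 for Gm28592.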
